A study of Homo sapiens with 8 samples.

Results

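Medium conditioned by chick dorsal root ganglia was compared with unconditioned medium in IGR-N91, a human neuroblastoma (NB) cell line. The 4 libraries concerned, 2 per group, were taken by their column names from the 8 RNA-seq libraries of the series. Of the 60676 gene identifiers in the count table, 32570 had at least 1 count and 16680 passed the filter on low counts and were tested. In every group IGR-N91 cells were grown as aggregates in hanging drops. The control medium group received culture medium that had held no tissue. The E8-cDRGcm group received medium conditioned by dorsal root ganglia (DRG) dissected from E8 chick embryos and cultured in DMEM with fetal bovine serum. The other groups of the series received medium of E8 chick sympathetic ganglia (E8-cSGcm) or of E15.5 mouse sympathetic ganglia (E15.5-mSGcm). The libraries of these 2 groups shared the fit, its filter and its estimate of spread, and their levels are compared below only with E8-cDRGcm. Aggregates were collected after 20 h according to the labels, whereas 24 h is given elsewhere in the study. The model is limited to a single cell line and a single time, and the labels do not say that the replicate libraries came from separate cultures. The p-values therefore measure the spread between these libraries, which may be technical.

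DRG are clusters of sensory neurons and their satellite glia that lie beside the spinal cord and derive, like the sympathetic ganglia, from the neural crest. NB is a tumour of the sympathetic lineage, whose cells make and store catecholamines and respond to neurotrophic factors. Cells meet amino acid shortage and other stresses through the integrated stress response, in which the transcription factor ATF4 and its C/EBP partners raise genes for amino acid synthesis, uptake and tRNA charging. The unfolded protein response is a related programme of the endoplasmic reticulum (ER), and its targets include the ER chaperones.

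Total counts were 12926136 and 15060744 in control medium and 13508609 and 13990286 in E8-cDRGcm. Levels are in CPM, the usual unit of counts divided by library size. A gene was taken as measurable from 3 counts upwards, a floor of 0.197 to 0.229 CPM here. That floor covers counting error only, since the reads carry no molecular identifiers. Levels below are normalised by TMM and are compared between libraries, not between genes. Differences are log2 fold changes of E8-cDRGcm against control medium with their standard error (SE), from edgeR's quasi-likelihood test with Benjamini-Hochberg adjusted p. Calls of a gene as higher or lower needed both a fold change of 1.5 or more and an adjusted p below 0.05. The study describes the line as noradrenergic. Of the sympathetic markers, GATA2 was at 749 and 770.3 CPM and MYCN at 4679 and 4609.9 CPM in the control libraries. DBH was at 37.8 and 37.2 CPM there, TH was at 8.87 and 9.07 CPM, and CHGA had no read. These levels alone do not show an identity. Markers of other cells were present in part. No read in any of the 4 libraries was found for 4 of 9 glial markers, among them SOX10, FABP7 and FOXD3, for 2 of 11 sensory neuron markers (NEUROG1 and SCN10A), or for 3 of 10 fibroblast markers (FAP, POSTN and TWIST2). Other members of these lists were well above the floor, such as DRGX with 588 and 576 reads in control medium, LUM with 654 and 828 and TWIST1 with 3163 and 3337.

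E8-cDRGcm changed a wide share of the transcriptome in both directions. Of the 16680 genes tested, 9.81% were called higher (1636 genes) and 10.9% lower (1824 genes), and the median log2 fold change over all genes was 0.01. Most differences were moderate, with a median fold change of 1.92 among genes called higher and 1.98 among those called lower. At least 4-fold differences were measured for 132 genes called higher and 158 called lower, and at least 8-fold differences for 38 and 46. The 2 groups overlapped in only 5 of the 3460 called genes, so a remark below that groups were separate adds little to a call. In 1094 of the genes called higher both E8-cDRGcm libraries lay above the other 6 libraries of the series. In 1237 of those called lower they lay below all 6. Being called had already set nearly all of these genes apart from the control libraries, and the share over all genes tested was not computed. In these bulk samples, fewer cells of a type and less RNA per cell cannot be told apart.

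**Figure D1:**
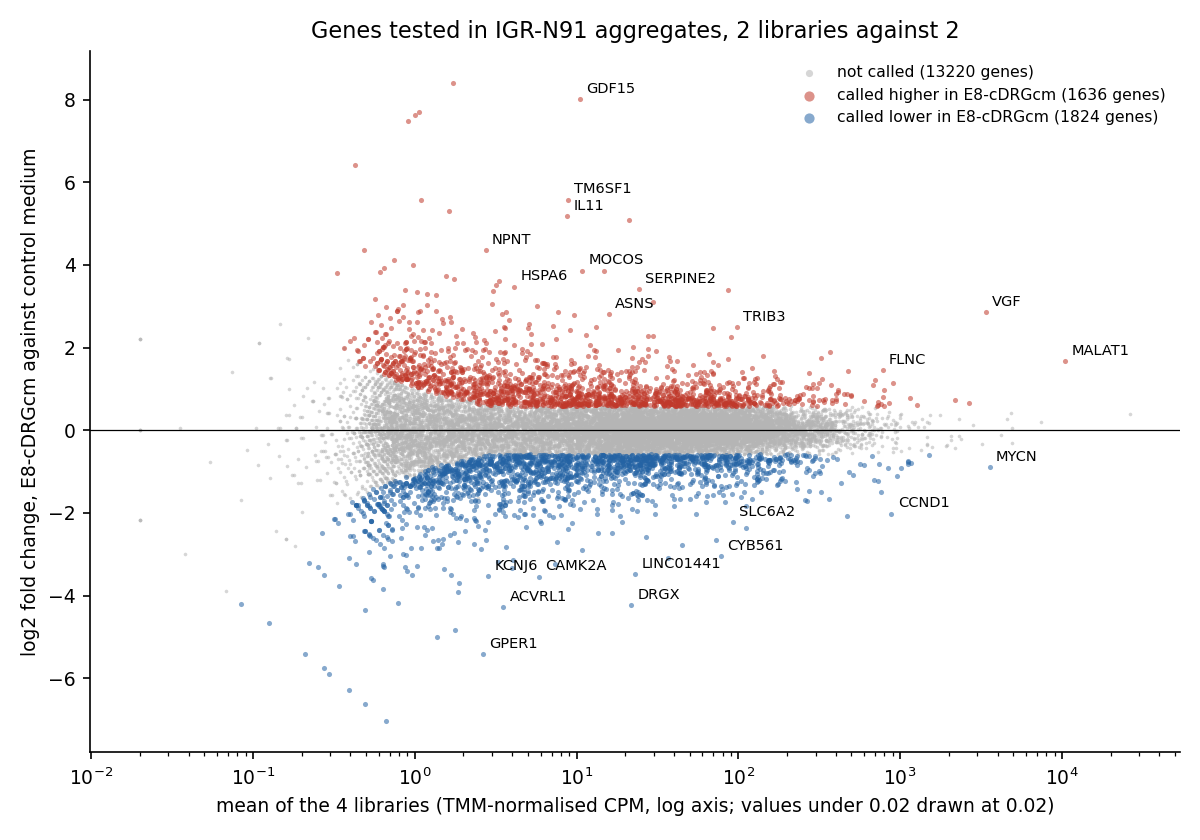
Log2 fold change of E8-cDRGcm against control medium for each tested gene (vertical axis) by its mean level in the 4 libraries (horizontal log axis, CPM, with values under 0.02 drawn at 0.02). Red points are the 1636 genes called higher, blue points the 1824 called lower, and named genes carry their symbol: VGF and MALAT1 stand out at high levels and GPER1 and DRGX among the lowest fold changes.

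The protein-coding genes with the highest fold changes encoded secreted and membrane proteins in several cases. IL11, a cytokine of the gp130 family, had 0.382 and 0.526 CPM in control medium and 17.2 and 16.8 in E8-cDRGcm (log2 fold change 5.18 ± 0.28, adjusted p = 4.17e-18). NPNT encodes nephronectin, an extracellular matrix ligand of integrins, and had 0.306 and 0.197 CPM in control medium and 4.49 and 6.01 in E8-cDRGcm (log2 fold change 4.35 ± 0.40, adjusted p = 1.07e-11). In both genes the 2 treated libraries lay far above the controls, which held no more than 8 reads of either gene. TM6SF1, a membrane protein of lysosomes, had 0.459 and 0.263 CPM in control medium and 16.7 and 18.1 in E8-cDRGcm (log2 fold change 5.58 ± 0.27, adjusted p = 1.87e-19). SH3KBP1, an adaptor in receptor endocytosis, had 2.14 and 1.71 CPM in control medium and 28.5 and 26.9 in E8-cDRGcm (log2 fold change 3.85 ± 0.16, adjusted p = 2.06e-21), and MOCOS, the sulfurase of the molybdenum cofactor, had 1.07 and 1.64 CPM in control medium and 21.6 and 18.8 in E8-cDRGcm (log2 fold change 3.87 ± 0.20, adjusted p = 1.70e-18). SEL1L3 (3.52) and the inducible heat shock protein HSPA6 (3.48), whose reads can be shared with near-identical HSP70 copies, also ranked among the 10 highest, together with GDF15, NIBAN1 and TNFRSF9. GDF15 had 0 and 2 reads in control medium against 257 and 309 in E8-cDRGcm. The ratio of its summed reads, scaled by normalised library size, was 296 with an exact 95% counting interval of 81.6 to 2452.

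At the other end stood receptors, ion channels and synaptic genes. GPER1, a G protein-coupled oestrogen receptor, had 68 and 79 reads in control medium and 1 and 2 in E8-cDRGcm (adjusted p = 2.49e-13). The ratio of control to treated reads, scaled by normalised library size, was 46.8 with a counting interval of 15.7 to 229.6. ACVRL1, a type I receptor of the TGF-beta family, had 7.26 and 6.18 CPM in control medium and 0.374 and 0.293 in E8-cDRGcm (log2 fold change −4.29 ± 0.34, adjusted p = 2.45e-13). The homeobox gene DRGX, named for its expression in DRG, had 45.0 and 37.9 CPM in control medium and 2.39 and 1.98 in E8-cDRGcm (log2 fold change −4.23 ± 0.15, adjusted p = 7.82e-24). No overlap between the groups was a condition for naming these genes, so their separation is not a further result. CAMK2A, a kinase of synaptic plasticity, had 9.25 and 12.4 CPM in control medium and 0.972 and 0.879 in E8-cDRGcm (log2 fold change −3.55 ± 0.25, adjusted p = 1.46e-14), and the potassium channel KCNJ6 had 5.20 and 5.26 CPM in control medium and 0.449 and 0.440 in E8-cDRGcm (log2 fold change −3.53 ± 0.33, adjusted p = 2.83e-11). LRRTM2, a synapse-organising membrane protein, had 7.42 and 7.04 CPM in control medium and 0.972 and 0.440 in E8-cDRGcm (log2 fold change −3.34 ± 0.29, adjusted p = 3.22e-12). The 4 others among the 10 lowest were RD3 (−3.23), RIPOR3 (−3.19), SERTM2 (−3.13) and PRCD (−3.09).

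Among genes called higher, the largest differences in level after MALAT1 were in VGF, DYNC1H1, SPTBN1 and FLNC. VGF, a neuroendocrine prohormone induced by neurotrophins, had 812 and 827 CPM in control medium and 5664 and 6262 in E8-cDRGcm (log2 fold change 2.86 ± 0.05, adjusted p = 8.09e-32), and its E8-cDRGcm level was also above both other media, with a log2 fold change of 1.89, adjusted p = 5.82e-26 against E8-cSGcm and 2.73, adjusted p = 4.22e-31 against E15.5-mSGcm. FLNC, an actin crosslinker, had 413 and 422 CPM in control medium and 1128 and 1157 in E8-cDRGcm (log2 fold change 1.45 ± 0.05, adjusted p = 1.67e-23), and SPTBN1, a spectrin of the membrane skeleton, had 1597 and 1652 CPM in control medium and 2705 and 2732 in E8-cDRGcm (log2 fold change 0.74 ± 0.05, adjusted p = 7.27e-15). The dynein heavy chain DYNC1H1 rose by 0.66 (adjusted p = 0.0139) but was no longer called without E8-cDRGcm replicate 1 or without replicate 2. MYCN, the driver oncogene of many NB, showed the largest fall in level, with 4679 and 4609.9 CPM in control medium and 2433 and 2558 in E8-cDRGcm (log2 fold change −0.90 ± 0.05, adjusted p = 8.10e-18). Cyclin D1 (CCND1) had 1404 and 1429.6 CPM in control medium and 357 and 343 in E8-cDRGcm (log2 fold change −2.02 ± 0.05, adjusted p = 2.73e-28). SFPQ, a nuclear RNA-binding protein of paraspeckles, had 1107 and 1138 CPM in control medium and 395 and 407 in E8-cDRGcm (log2 fold change −1.49 ± 0.05, adjusted p = 8.43e-25), and PEG10, an imprinted retrotransposon-derived gene, fell by 1.12 (adjusted p = 5.80e-21). In each of these genes the replicate libraries of a group differed far less than the groups did.

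Genes that supply amino acids to protein synthesis were called higher more often than genes in general. Of 19 cytosolic aminoacyl-tRNA synthetases, the enzymes that charge tRNAs, 8 were called higher and 0 lower, above the 9.81% of all genes called higher. WARS1, the tryptophan enzyme, had 155 and 158 CPM in control medium and 591 and 577 in E8-cDRGcm (log2 fold change 1.901 ± 0.05, adjusted p = 7.89e-27), and SARS1, the serine enzyme, had 154 and 143 CPM in control medium and 501 and 499.7 in E8-cDRGcm (log2 fold change 1.75 ± 0.05, adjusted p = 8.22e-26). The alanine enzyme AARS1 had 428 and 410.1 CPM in control medium and 973 and 984 in E8-cDRGcm (log2 fold change 1.22 ± 0.05, adjusted p = 6.20e-22), and rises of 0.92 to 1.20 were measured for CARS1, MARS1, GARS1, YARS1 and NARS1. The treated libraries lay above the controls in all 8. The remaining 11 were not called, with EPRS1 at 0.44, IARS1 at 0.13 and RARS1 at −0.18, and the median of the list was 0.15. Among the 15 mitochondrial synthetases 0 were called in either direction and the median was −0.13. Leaving out control medium replicate 1 or E8-cDRGcm replicate 1 gave 1 call higher there.

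Enzymes of amino acid synthesis and folate metabolism gave 12 calls higher and 0 lower among 24, with a median of 0.62. Asparagine synthetase (ASNS), a well-known ATF4 target, had 3.29 and 4.47 CPM in control medium and 26.6 and 28.9 in E8-cDRGcm (log2 fold change 2.82 ± 0.14, adjusted p = 1.34e-18). CTH, which makes cysteine from cystathionine, had 17.7 and 16.2 CPM in control medium and 54.4 and 60.4 in E8-cDRGcm (log2 fold change 1.76 ± 0.09, adjusted p = 7.99e-19), and GPT2, a mitochondrial alanine transaminase, had 97.6 and 82.2 CPM in control medium and 238 and 244 in E8-cDRGcm (log2 fold change 1.43 ± 0.06, adjusted p = 1.04e-19). For all 3 the lower treated library exceeded the higher control by more than the replicates differed. The serine pathway rose along its length, with PHGDH at 1.18, PSAT1 at 0.75, PSPH at 1.13 and the mitochondrial folate enzymes SHMT2 at 1.13 and MTHFD2 at 0.89. The argininosuccinate synthase ASS1 (1.26) and the aspartate transaminase GOT1 (1.11) were called as well.

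Amino acid transporters split. Of 16 tested, 7 were called higher and 3 lower, with a median of 0.03. The cationic transporter SLC7A3 had 0 and 2 reads in control medium and 43 and 43 in E8-cDRGcm, a ratio of 45.0 with a counting interval of 12.1 to 378 (adjusted p = 7.77e-09). SLC1A4, a neutral amino acid carrier, had 34.02 and 39.4 CPM in control medium and 82.8 and 89.4 in E8-cDRGcm (log2 fold change 1.23 ± 0.08, adjusted p = 3.49e-16), and SLC7A5 and SLC3A2, the subunits of the large neutral amino acid exchanger, rose by 1.03 and 0.94. The glutamine carrier SLC1A5 rose by 0.83, the leucine carrier SLC43A1 by 0.77 and the cystine exchanger SLC7A11 by 0.71. The taurine transporter SLC6A6 went the other way, with 154 and 145 CPM in control medium and 80.1 and 69.7 in E8-cDRGcm (log2 fold change −0.999 ± 0.06, adjusted p = 1.85e-16), as did SLC7A6 (−0.84) and the glycine transporter SLC6A9 (−0.66), the last of which was not called without E8-cDRGcm replicate 2.

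Regulators and targets of the integrated stress response were called higher in 11 of 23 and lower in 0, with a median of 0.31. TRIB3, a pseudokinase induced by ATF4, had 30.6 and 28.8 CPM in control medium and 158 and 175 in E8-cDRGcm (log2 fold change 2.49 ± 0.09, adjusted p = 5.76e-16). The transcription factor ATF5 had 31.6 and 30.8 CPM in control medium and 148 and 150.3 in E8-cDRGcm (log2 fold change 2.26 ± 0.07, adjusted p = 3.11e-25), and DDIT3, which encodes CHOP, had 10.8 and 9.601 CPM in control medium and 35.4 and 32.4 in E8-cDRGcm (log2 fold change 1.74 ± 0.11, adjusted p = 1.91e-15). PPP1R15A, the phosphatase subunit that reverses eIF2alpha phosphorylation, had 27.3 and 25.1 CPM in control medium and 82.3 and 75.2 in E8-cDRGcm (log2 fold change 1.59 ± 0.08, adjusted p = 4.73e-19). These 4 genes did not overlap between the groups. The hormone gene FGF21 had 11 and 12 reads in E8-cDRGcm and none in either control library, at least 3.99-fold higher than the floor of 3 counts per library (adjusted p = 5.27e-05). The mRNA of ATF4 itself had 349 and 309.7 CPM in control medium and 391.8 and 374 in E8-cDRGcm (log2 fold change 0.22 ± 0.06, adjusted p = 0.00159) and stayed under the fold change criterion. CHAC1 (−0.40), ATF3 (−0.48) and SESN2 (−0.19), which are also known ATF4 targets, were not called and had values below 0. Setting the control level of FGF21 and SLC7A3 to the floor left the medians of their lists the same. Leaving out control medium replicate 2 gave 1 call lower in this list.

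The promoters of these genes were searched for the C/EBP-ATF response element, the composite site bound by ATF4 and C/EBP proteins, spelled TGATGNAAN, on both strands. RefSeq windows on GRCh38.p14, from 250 bases before to 50 after the start, were matched by symbol for 10812 tested genes. The element was present in 1.67% of all of these windows, in 2.50% of those of genes called higher (28 of 1119) and in 0.771% of those of genes called lower (9 of 1167). Among the cytosolic synthetases 6 of 16 windows held it, 4 of them of genes called higher (AARS1, CARS1, MARS1 and NARS1), against 1 of 13 for the mitochondrial synthetases. For amino acid synthesis it was 4 of 16, and for the integrated stress response list 4 of 21, of which only FGF21 was called higher. A match is a description of these letters, not evidence of binding. Elements that lie before the start site are shown for 5 genes called higher and, for comparison, for 2 genes of the stress response list that were not called, with the element in capitals and on the gene's strand:
AARS1 (chr16:70289676-70289704, minus strand): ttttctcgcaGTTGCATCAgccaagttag
ASNS (chr7:97872458-97872486, minus strand): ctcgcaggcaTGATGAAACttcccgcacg
FGF21 (chr19:48755459-48755487, plus strand): aaacaccaggATTGCATCAgggaggagga
GOT1 (chr10:99430805-99430833, minus strand): aattgcattgGTTGCATCAttctcggcag
MTHFD1L (chr6:150866347-150866375, plus strand): ccgccggctcTGATGCAATcgcgccgggc
CHAC1 (chr15:40953251-40953279, plus strand): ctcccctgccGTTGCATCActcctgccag
ATF3 (chr1:212565206-212565234, plus strand): aaggtcaggaTGATGGAAGgctgtcatat

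The 5 called genes carry the element at different distances and in both orientations, 188 bases before the start in AARS1, 68 in ASNS, 55 in FGF21, 199 in GOT1 and 129 in MTHFD1L. CHAC1 and ATF3 carry a match at 210 and 191 bases. Matches were thus present in called and in uncalled genes of these lists.

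Genes of the ER were called in both directions. Of 23 ER chaperone and unfolded protein response genes, 10 were called lower and 5 higher, with a median of −0.52. Several abundant chaperones and folding enzymes fell. HSPA5, the ER HSP70 BiP, had 910.5 and 969 CPM in control medium and 564 and 500.2 in E8-cDRGcm (log2 fold change −0.82 ± 0.06, adjusted p = 9.12e-13), and HSP90B1, the ER HSP90, had 1339.6 and 1302 CPM in control medium and 771 and 641 in E8-cDRGcm (log2 fold change −0.90 ± 0.06, adjusted p = 5.07e-12). PDIA4, a disulfide isomerase, had 622 and 672 CPM in control medium and 316 and 322 in E8-cDRGcm (log2 fold change −1.02 ± 0.05, adjusted p = 1.13e-18), and the lectin chaperone CALR had 1415 and 1415 CPM in control medium and 837 and 825 in E8-cDRGcm (log2 fold change −0.77 ± 0.05, adjusted p = 2.12e-16). Groups were separate for all of them. SDF2L1 (−1.29), DNAJB11 (−0.95), MANF (−0.87), PDIA3 (−0.75), CANX (−0.72) and CRELD2 (−0.70) were lower too. The 5 genes called higher were ERN1, EDEM1, ATF6, HERPUD1 and SEL1L. ERN1, which encodes the sensor IRE1, had 12.7 and 13.1 CPM in control medium and 49.4 and 48.7 in E8-cDRGcm (log2 fold change 1.93 ± 0.09, adjusted p = 2.46e-19), and EDEM1, which delivers misfolded glycoproteins to degradation, had 35.1 and 31.8 CPM in control medium and 90.3 and 86.8 in E8-cDRGcm (log2 fold change 1.41 ± 0.08, adjusted p = 5.56e-18). The sensor ATF6 rose by 0.87 and HERPUD1, of the ER degradation complex, by 0.83. SEL1L, of the same complex, was at 0.59 and just past the fold change criterion, which it did not meet without control medium replicate 1, without E8-cDRGcm replicate 1, with only the 4 libraries compared or with the correction for GC content and length. The remaining 8 genes, such as XBP1 (0.46), were not called.

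**Figure D2:**
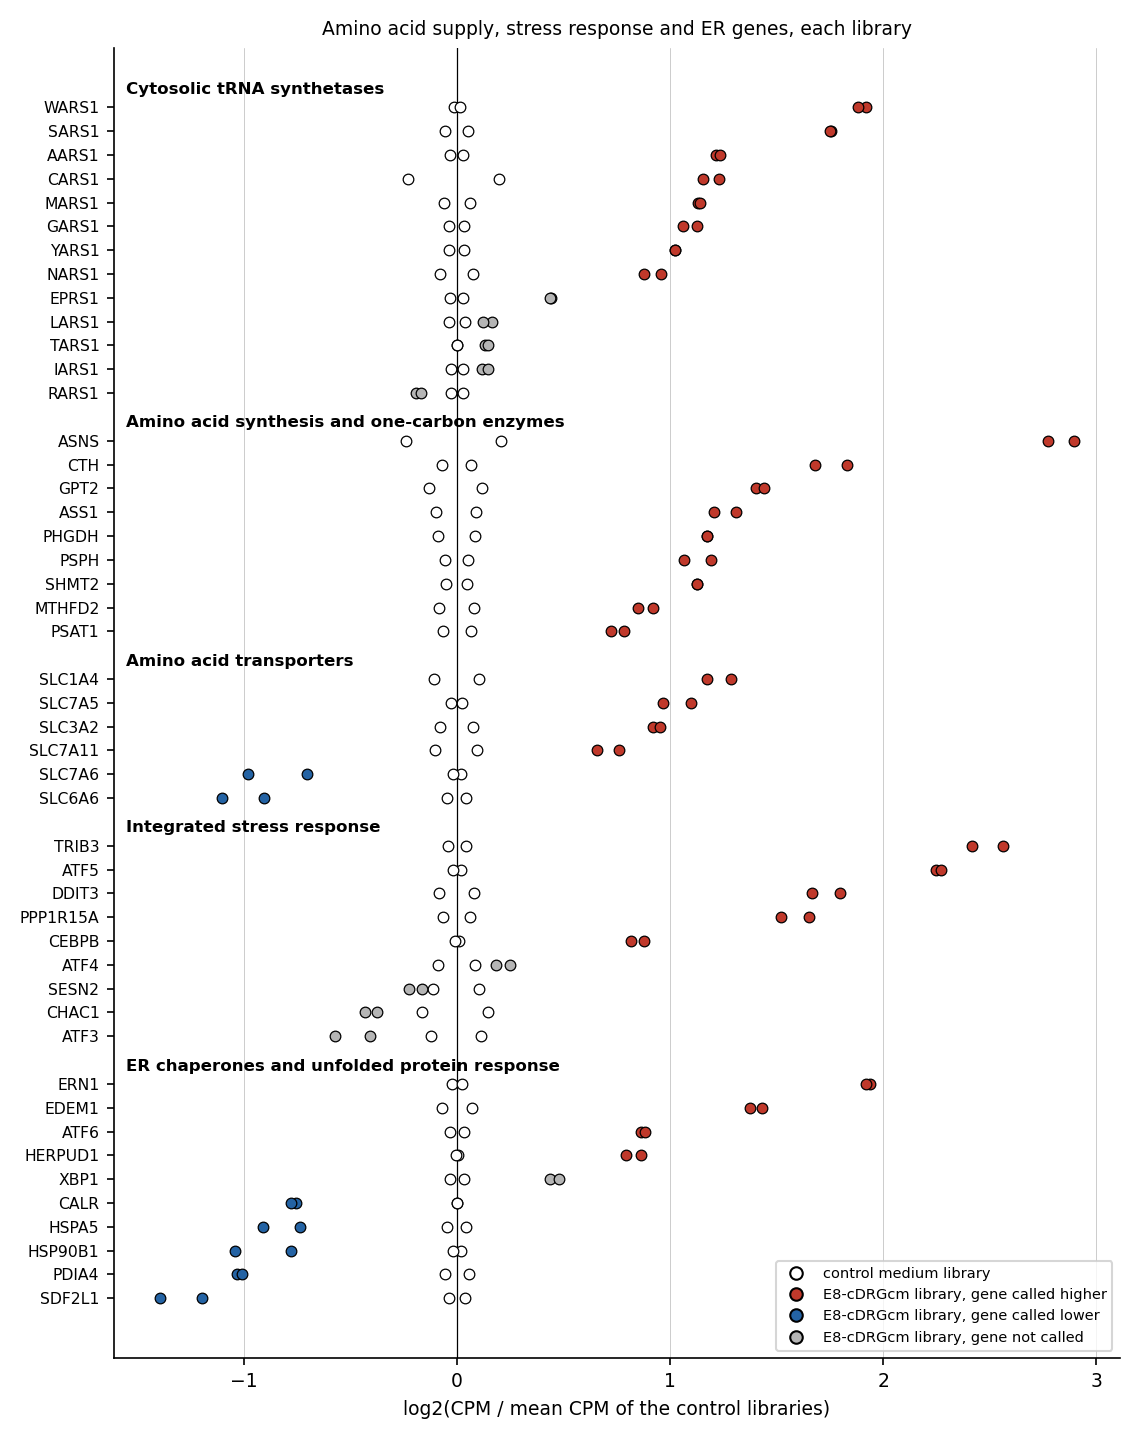
Each library's level of selected list members as log2 of its CPM over the mean CPM of the control libraries (horizontal axis). Open circles are control medium libraries and filled circles E8-cDRGcm libraries, red for genes called higher, blue for genes called lower and grey for genes not called. The called synthetases, synthesis enzymes and stress response targets such as TRIB3 lie to the right, ATF4 lies close to 0 and ER chaperones such as HSPA5 lie to the left.

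Genes of lipid synthesis that were called were mostly lower. None of 24 sterol synthesis and uptake genes was called higher and 7 were called lower, with a median of −0.27. IDI1, of the isoprenoid branch, had 169.8 and 165 CPM in control medium and 101 and 90.5 in E8-cDRGcm (log2 fold change −0.81 ± 0.06, adjusted p = 1.82e-14). TM7SF2 (−1.09), MVK (−0.80), NSDHL (−0.69), LSS (−0.68) and HSD17B7 (−0.62) were also lower. SQLE (−0.29), of squalene epoxidation, and INSIG1 (0.17), which retains the sterol sensor in the ER, were not called. Fatty acid synthesis gave 5 calls lower and 2 higher among 16 (median −0.31). FASN, the fatty acid synthase, had 1339 and 1459 CPM in control medium and 829.7 and 846 in E8-cDRGcm (log2 fold change −0.74 ± 0.05, adjusted p = 3.77e-13), the desaturase FADS2 had 424 and 409 CPM in control medium and 212 and 209 in E8-cDRGcm (log2 fold change −0.99 ± 0.05, adjusted p = 3.46e-19), and SREBF1, which encodes the master regulator SREBP-1, had 57.9 and 56.9 CPM in control medium and 32.1 and 31.0 in E8-cDRGcm (log2 fold change −0.86 ± 0.08, adjusted p = 4.90e-12). All control libraries lay above the treated libraries for these 3 genes. FADS1 (−0.71) and ELOVL6 (−0.67) were also lower, whereas ME1, which supplies NADPH, rose by 0.94 and FADS3 by 1.02.

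NRF2 targets, the antioxidant and iron-handling genes of that factor, were called higher in 13 of 23 and lower in 0, with a median of 0.62. HMOX1, heme oxygenase 1, had 2.29 and 1.97 CPM in control medium and 10.9 and 13.6 in E8-cDRGcm (log2 fold change 2.52 ± 0.20, adjusted p = 2.27e-13), and NQO1, a quinone reductase, had 100.4 and 101 CPM in control medium and 218 and 206 in E8-cDRGcm (log2 fold change 1.07 ± 0.06, adjusted p = 1.57e-18). GCLM, of glutathione synthesis, had 19.0 and 19.3 CPM in control medium and 37.5 and 36.3 in E8-cDRGcm (log2 fold change 0.95 ± 0.09, adjusted p = 4.74e-11). The groups did not overlap. Ferritin heavy and light chains rose by 0.86 (FTH1) and 0.62 (FTL), thioredoxin reductase TXNRD1 by 0.71 and glutathione reductase GSR by 0.61. OSGIN1 had few reads, 6 and 1 in control medium and 26 and 31 in E8-cDRGcm (log2 fold change 3.04 ± 0.52, adjusted p = 6.32e-06), and AKR1C1 (0.80) shares sequence with its paralogs. ME1 and SLC7A11 belong to this list and to a list above. NFE2L2, which encodes NRF2, was at 0.40 and not called. The antioxidant response element, spelled TGACNNNGC, was found in 4 of 16 promoter windows of the list, against 15.1% of all windows. It was not particular to this list. Amino acid synthesis had it in 4 of 16 windows, amino acid transporters in 4 of 12, the stress response list in 5 of 21 and ER genes in 5 of 22. Sterol genes had it in 1 of 18. Genes called higher had it in 13.4% of windows and those called lower in 13.1%. Of 21 heat shock genes 4 were called higher and 1 lower, the higher ones being HSPA6, DNAJB4 (1.65), DNAJB1 (1.1401) and BAG3 (0.66).

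Nuclear and mitochondrial genes of the respiratory chain behaved unlike each other. Among 71 nuclear-encoded subunits 1 was called higher and 0 lower (median 0.08), well under the share of all genes. That gene, NDUFV2 (0.68), was not called by DESeq2, without control medium replicate 1 or without E8-cDRGcm replicate 1. Of the 13 mitochondrially encoded subunits 0 were called higher and 6 lower (median −0.53). MT-CYB, of complex III, had 886 and 1149 CPM in control medium and 396 and 479 in E8-cDRGcm (log2 fold change −1.22 ± 0.18, adjusted p = 0.00532), and MT-ATP8, of the ATP synthase, had 535 and 679 CPM in control medium and 225 and 274 in E8-cDRGcm (log2 fold change −1.28 ± 0.20, adjusted p = 0.00618). Here the replicates themselves were uneven, since the higher library exceeded the lower by a similar factor in both groups. MT-CO1 had 4293 and 5406 CPM in control medium and 4348 and 5701 in E8-cDRGcm (log2 fold change 0.05 ± 0.20, adjusted p = 0.863) and overlapped between the groups. The count of 6 fell to 3 without E8-cDRGcm replicate 1 and to 3 when only the 4 libraries compared were fitted. MT-ND2 and MT-ATP6 lost their calls in both settings. Mitochondrial rRNA took 3.03% and 2.99% of the reads in control medium and 3.29% and 4.15% in E8-cDRGcm. Whether library composition had a part in the mitochondrial result was not tested.

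Few translation and growth genes were called. Of 74 cytosolic ribosomal protein genes 1 (RPS27, 0.96) was called higher and 0 lower, although 63 had values above 0 (median 0.13). Translation factors gave 2 calls higher and 1 lower among 37, the lower one being EIF5, with 257 and 251 CPM in control medium and 115 and 101 in E8-cDRGcm (log2 fold change −1.24 ± 0.06, adjusted p = 1.32e-19). Ribosome biogenesis gave 3 calls lower and 0 higher among 31 (median −0.29), led by UTP20, of the small subunit processome, with 182 and 186 CPM in control medium and 77.6 and 77.1 in E8-cDRGcm (log2 fold change −1.25 ± 0.06, adjusted p = 5.22e-20). The proteasome had 1 call in each direction among 32 subunits, and metallothioneins and zinc transporters had none among 8. In the MYC network, MYCN and the antagonist MXD4 (−1.05) fell and 2 genes of low level were called higher. MYCL had 1 and 0 reads in control medium and 14 and 11 in E8-cDRGcm, a ratio of 26.2 with a counting interval of 4.28 to 1074 (adjusted p = 1.49e-04), and MYC had 10 and 9 against 25 and 26 reads (log2 fold change 1.47 ± 0.43, adjusted p = 0.00439). The call of MYC was lost without control medium replicate 2, and both were removed by a filter of 10 counts in every library.

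Of the cell cycle lists, that of mitosis had calls higher above the share of all genes. Of its 42 genes, 13 (31.0%) were called higher, 29 were not called and 0 were lower, 38 had values above 0, and the median was 0.40. TPX2, a spindle assembly factor, had 289 and 278 CPM in control medium and 525 and 524 in E8-cDRGcm (log2 fold change 0.89 ± 0.05, adjusted p = 5.64e-18), CDK1, the mitotic kinase, had 90.5 and 87.6 CPM in control medium and 166 and 156 in E8-cDRGcm (log2 fold change 0.86 ± 0.06, adjusted p = 1.83e-15), and KIF2C, a microtubule depolymerase, had 87.5 and 81.0 CPM in control medium and 150.1 and 143 in E8-cDRGcm (log2 fold change 0.80 ± 0.06, adjusted p = 1.99e-14). The replicates were close to each other in these genes. The proliferation marker MKI67 was less even, with 538 and 535 CPM in control medium and 1244 and 850.3 in E8-cDRGcm (log2 fold change 0.97 ± 0.21, adjusted p = 0.0203), and lost its call when either control library was left out. Without E8-cDRGcm replicate 1 the list had 8 calls. Among 48 DNA replication and S phase genes 5 were called lower (10.4%, close to the 10.9% of all genes) and 1 higher (median −0.26). MCM3, of the replicative helicase, had 173 and 167 CPM in control medium and 111 and 103 in E8-cDRGcm (log2 fold change −0.67 ± 0.05, adjusted p = 7.16e-13). GINS4 (−1.10), POLA1 (−0.69) and POLE2 (−0.61) were also lower. The number called lower was 10 without control medium replicate 2, and 8 without E8-cDRGcm replicate 1 or 2. Replication-dependent histones likewise gave 5 calls lower (10.4%) and 0 higher among 48 (8 lower without control medium replicate 2 or E8-cDRGcm replicate 2), and copies of these genes share reads. The CDK inhibitors CDKN2D (1.53) and CDKN1A (1.28) rose from low levels while CCND1 fell.

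The catecholamine list, which also holds the nicotinic receptor subunits CHRNA3 and CHRNB4, had 8 of 15 genes called lower and 1 higher. Its median was −0.65, and 10.9% of all genes were called lower. CHRNA3 is also counted among the neurotransmitter receptors below. CYB561, the electron carrier of chromaffin granules, had 140.3 and 138 CPM in control medium and 14.8 and 18.8 in E8-cDRGcm (log2 fold change −3.05 ± 0.08, adjusted p = 3.78e-27). SLC6A2, the noradrenaline transporter, had 149 and 155 CPM in control medium and 32.8 and 32.1 in E8-cDRGcm (log2 fold change −2.23 ± 0.07, adjusted p = 5.39e-25), and DBH, which makes noradrenaline from dopamine, had 37.8 and 37.2 CPM in control medium and 9.20 and 10.04 in E8-cDRGcm (log2 fold change −1.96 ± 0.11, adjusted p = 4.99e-18). The treated libraries of all 3 lay far below both controls. SLC18A1, a vesicular monoamine transporter, had 26.2 and 26.4 CPM in control medium and 7.48 and 6.30 in E8-cDRGcm (log2 fold change −1.93 ± 0.12, adjusted p = 6.27e-16), and DDC, the decarboxylase that makes dopamine, had 51.1 and 48.4 CPM in control medium and 20.0 and 20.8 in E8-cDRGcm (log2 fold change −1.28 ± 0.08, adjusted p = 1.96e-15). CHRNA3, the nicotinic receptor subunit of autonomic neurons, had 389 and 401 CPM in control medium and 125 and 119 in E8-cDRGcm (log2 fold change −1.69 ± 0.05, adjusted p = 8.22e-26). SPR (−1.24) and PTS (−0.65), which make the cofactor of tyrosine hydroxylase, fell, while TH itself had 8.87 and 9.07 CPM in control medium and 5.46 and 7.03 in E8-cDRGcm and was not called (log2 fold change −0.52 ± 0.17, adjusted p = 0.00875). The single call higher was lost without control medium replicate 2 or E8-cDRGcm replicate 2. Of 12 tested sympathetic marker genes, 8 were called lower and 0 higher, and this list shares genes with the catecholamine list. Their summed level was 8650.5 to 8852 CPM in control medium and 5048 to 5087 CPM in E8-cDRGcm. Summed markers of fibroblasts were at 394 to 399.5 CPM against 455 to 470.4 CPM, and those of glia at 49.6 to 49.9 against 35.1 to 37.1. Those of sensory neurons were at 48.6 to 54.6 against 12.2 to 12.9. Most of the sensory neuron sum in control medium was DRGX. In E8-cDRGcm DRGX had 2.39 and 1.98 CPM and TLX3, which was not called, 7.10 and 6.45 CPM. The part of these other markers in the result was not tested.

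Several neuropeptide genes rose while these catecholamine genes fell. Of 14 genes of chromogranins, peptides and prohormone processing, 5 were called higher and 1 lower (median 0.05). NPY, neuropeptide Y, had 9.02 and 11.05 CPM in control medium and 50.6 and 48.3 in E8-cDRGcm (log2 fold change 2.29 ± 0.10, adjusted p = 1.08e-20), and VIP, vasoactive intestinal peptide, had 11.01 and 13.3 CPM in control medium and 41.0 and 44.8 in E8-cDRGcm (log2 fold change 1.81 ± 0.11, adjusted p = 1.35e-16). PCSK1, the convertase that cleaves prohormones, had 10.9 and 13.7 CPM in control medium and 29.9 and 29.3 in E8-cDRGcm (log2 fold change 1.26 ± 0.11, adjusted p = 2.45e-12). Somatostatin (SST) rose by 0.80, and VGF is given above. All 5 were separate between the groups. Chromogranin B (CHGB) fell, with 802 and 739 CPM in control medium and 444 and 423 in E8-cDRGcm (log2 fold change −0.83 ± 0.05, adjusted p = 1.16e-16), and CHGA had no read in any of the 4 libraries.

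**Figure D3:**
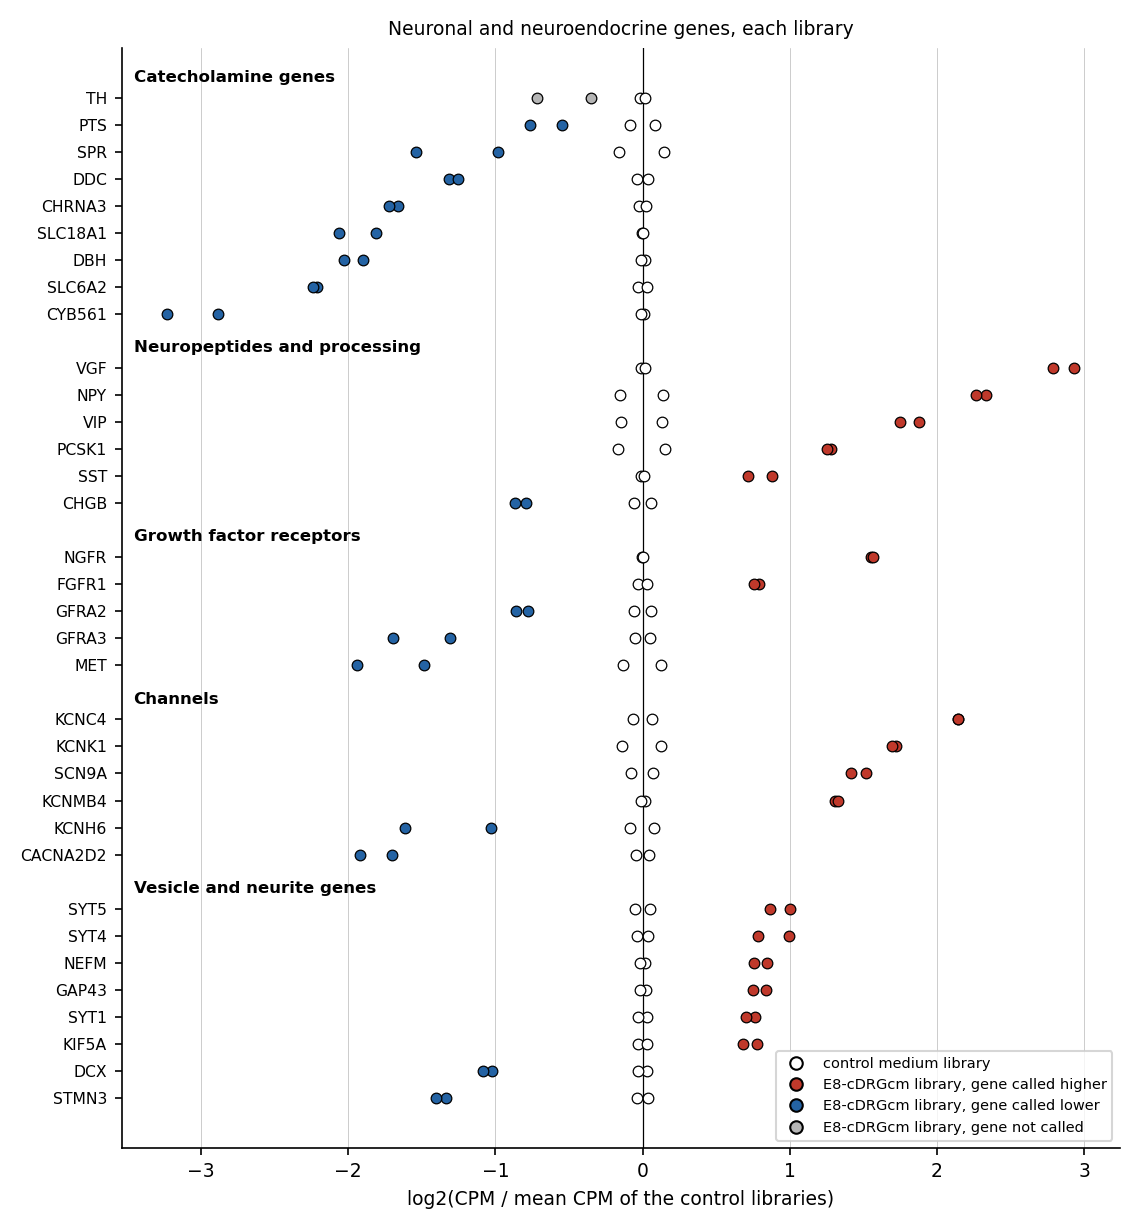
Each library's level of selected neuronal and neuroendocrine genes as log2 of its CPM over the mean CPM of the control libraries (horizontal axis), with open circles for control medium and filled circles for E8-cDRGcm. Blue marks genes called lower, red genes called higher and grey TH, which was not called. CYB561, SLC6A2, SLC18A1 and DBH lie near −2 or below it, while VGF and NPY lie above 2.

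Of 20 genes of growth factor receptors, 3 (15%) were called in each direction, beside 9.81% higher and 10.9% lower among all genes. NGFR, the low-affinity neurotrophin receptor, had 18.4 and 18.4 CPM in control medium and 53.8 and 54.5 in E8-cDRGcm (log2 fold change 1.56 ± 0.09, adjusted p = 2.11e-17), whereas MET, the receptor of hepatocyte growth factor, had 17.5 and 20.98 CPM in control medium and 5.01 and 6.89 in E8-cDRGcm (log2 fold change −1.70 ± 0.14, adjusted p = 1.98e-12). GFRA3, a receptor of the GDNF family, had 34.3 and 36.8 CPM in control medium and 10.99 and 14.4 in E8-cDRGcm (log2 fold change −1.49 ± 0.11, adjusted p = 3.19e-14), and GFRA2 fell by 0.82. FGFR1 rose by 0.77. ERBB3 was near the floor in control medium, with 12 and 9 reads, and had 26 and 43 in E8-cDRGcm (log2 fold change 1.76 ± 0.38, adjusted p = 1.65e-04). The neurotrophin receptor NTRK3, with 5 and 11 reads in control medium against 2 and 6, was low throughout and not called.

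Ion channels and neurotransmitter receptors were called in both directions more often than genes in general. Of 39 sodium, calcium and potassium channel genes, 8 were called higher and 9 lower. SCN9A, a sodium channel of peripheral neurons, had 14.7 and 13.2 CPM in control medium and 39.9 and 37.1 in E8-cDRGcm (log2 fold change 1.47 ± 0.10, adjusted p = 3.21e-15), and KCNK1, a background potassium channel, had 2.45 and 2.04 CPM in control medium and 7.40 and 7.25 in E8-cDRGcm (log2 fold change 1.71 ± 0.21, adjusted p = 1.75e-08). CACNA2D2, an auxiliary calcium channel subunit, had 48.9 and 45.9 CPM in control medium and 14.6 and 12.5 in E8-cDRGcm (log2 fold change −1.81 ± 0.10, adjusted p = 5.78e-18). The groups did not overlap in these 3 genes. Of 31 neurotransmitter receptor genes 7 were called higher and 6 lower, and the higher ones GABRA2, GRM4 and CHRM4 had no more than 24 reads in either control library. The count of calls higher was 3 with at least 10 counts in every library, and GRM4 lost its call without control medium replicate 2. GRIN1, the obligate NMDA receptor subunit, had 62.1 and 62.1 CPM in control medium and 23.4 and 23.6 in E8-cDRGcm (log2 fold change −1.40 ± 0.08, adjusted p = 1.19e-17), and GRIA4, an AMPA receptor subunit, had 107 and 107 CPM in control medium and 60.4 and 61.5 in E8-cDRGcm (log2 fold change −0.81 ± 0.06, adjusted p = 5.24e-14). The nicotinic subunit CHRNB2 fell by 0.94.

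Genes of vesicle release and neurites were called higher more often than lower. Among 36 genes of synaptic vesicles and release, 8 were called higher and 1 lower, with a median of 0.06. SYT4 had 80.3 and 76.2 CPM in control medium and 135 and 156 in E8-cDRGcm (log2 fold change 0.90 ± 0.06, adjusted p = 8.14e-15). SYT5 had 28.6 and 26.8 CPM in control medium and 50.5 and 55.5 in E8-cDRGcm (log2 fold change 0.94 ± 0.08, adjusted p = 3.39e-12). SYT1 had 241 and 231 CPM in control medium and 401 and 384 in E8-cDRGcm (log2 fold change 0.74 ± 0.05, adjusted p = 3.16e-15). All of these genes encode synaptotagmins. They were higher in both treated libraries. Of 32 genes of the neuronal cytoskeleton 6 were called higher and 2 lower. GAP43, a growth cone protein, had 49.6 and 48.2 CPM in control medium and 87.4 and 82.4 in E8-cDRGcm (log2 fold change 0.80 ± 0.07, adjusted p = 1.34e-12), and NEFM, a neurofilament, had 579 and 567 CPM in control medium and 1031 and 968 in E8-cDRGcm (log2 fold change 0.80 ± 0.05, adjusted p = 2.44e-16). The exceptions were doublecortin (DCX), of migrating neurons, with 179 and 172 CPM in control medium and 86.3 and 82.7 in E8-cDRGcm (log2 fold change −1.06 ± 0.06, adjusted p = 1.33e-17), and STMN3, a microtubule destabiliser, with 124 and 118 CPM in control medium and 47.9 and 45.7 in E8-cDRGcm (log2 fold change −1.37 ± 0.06, adjusted p = 5.06e-20). Axon guidance genes were called higher in 11 and lower in 12 of 54. SEMA3E (1.17), SEMA5B (1.36) and NEO1 (1.08) were the highest of them. NTN3 (−1.82) and EFNB2 (−0.84) were among the lowest, as was DCC, the netrin receptor, with 22 and 27 reads in control medium and 4 and 5 in E8-cDRGcm (log2 fold change −2.34 ± 0.46, adjusted p = 4.79e-05).

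Signalling targets differed from pathway to pathway. Of 22 immediate-early genes, 8 were called higher and 0 lower (median 0.36). There were 5 calls higher with at least 10 counts in every library, and 1 call lower without control medium replicate 2. NR4A3, a nuclear receptor, had 1.68 and 1.38 CPM in control medium and 8.00 and 8.86 in E8-cDRGcm (log2 fold change 2.46 ± 0.24, adjusted p = 3.85e-11), ZFP36, an mRNA decay factor, had 5.28 and 6.51 CPM in control medium and 21.4 and 18.9 in E8-cDRGcm (log2 fold change 1.76 ± 0.15, adjusted p = 4.91e-12), and FOSL2, an AP-1 subunit, had 87.1 and 91.1 CPM in control medium and 149 and 155 in E8-cDRGcm (log2 fold change 0.77 ± 0.06, adjusted p = 3.99e-14). The groups were separate. FOS rose by 1.30 and NR4A1 by 0.71. The ERK output list gave 4 calls higher (19%) and 5 lower (23.8%) among 21, beside 9.81% and 10.9% of all genes. SPRY2 (−0.96) and DUSP7 (−0.86), which feed back on ERK, and ETV1 (−1.145), an ETS factor, were among the lower ones, as was CCND1 (−2.02). The higher ones included VGF (2.86) and the feedback phosphatase DUSP5 (0.63). DUSP5 was below the fold change criterion without control medium replicate 1 (0.51) or E8-cDRGcm replicate 2 (0.53).

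The gp130, STAT3 and SOCS list had 7 calls higher and 2 lower among 21 (median 0.26). SOCS3, the feedback inhibitor of gp130 signalling, had 10 and 7 reads in control medium and 45 and 35 in E8-cDRGcm (log2 fold change 2.28 ± 0.37, adjusted p = 2.71e-06), and the receptor IL6R had 13 and 14 against 61 and 58 (log2 fold change 2.19 ± 0.30, adjusted p = 1.07e-07). The kinase PIM1, a STAT3 target, had 13.8 and 10.98 CPM in control medium and 31.8 and 34.7 in E8-cDRGcm (log2 fold change 1.43 ± 0.12, adjusted p = 2.85e-12), and the related PIM3 rose by 1.17. BCL6 rose by 1.47 and JAK1 by 0.71. SOCS4 (−1.07) and the receptor CNTFR (−0.68) were lower. IL11, whose protein signals through gp130, is described above. Of 14 TNF receptor genes, 6 were called higher and 0 lower (median 0.48), or 3 with at least 10 counts in every library. TNFRSF10B, the death receptor DR5, had 64.3 and 62.4 CPM in control medium and 185 and 175 in E8-cDRGcm (log2 fold change 1.51 ± 0.06, adjusted p = 6.16e-22), and TNFRSF1A, the main TNF receptor, had 46.9 and 43.99 CPM in control medium and 82.1 and 87.2 in E8-cDRGcm (log2 fold change 0.90 ± 0.07, adjusted p = 1.15e-13).

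NF-kB genes were called higher in 5 and lower in 2 of 19, with NFKB2 at 19.3 and 20.1 CPM in control medium and 63.9 and 62.8 in E8-cDRGcm (log2 fold change 1.69 ± 0.09, adjusted p = 5.05e-18) and BIRC3, a target, at 3.90 and 3.68 CPM in control medium and 1.72 and 1.25 in E8-cDRGcm (log2 fold change −1.35 ± 0.26, adjusted p = 4.35e-05). Of 15 YAP/TAZ-TEAD targets and partners 6 were called higher and 2 lower (median 0.77). The coactivator WWTR1 (TAZ) had 10.9 and 12.03 CPM in control medium and 22.96 and 23.2 in E8-cDRGcm (log2 fold change 1.003 ± 0.12, adjusted p = 1.02e-08) and PTPN14 had 4.74 and 4.41 CPM in control medium and 12.8 and 12.01 in E8-cDRGcm (log2 fold change 1.44 ± 0.17, adjusted p = 5.35e-09), but NT5E, the ecto-enzyme CD73, had 121 and 120.3 CPM in control medium and 42.8 and 38.7 in E8-cDRGcm (log2 fold change −1.57 ± 0.07, adjusted p = 7.93e-21). Wnt targets and antagonists gave 4 calls lower and 0 higher among 13. TCF7, a nuclear effector of Wnt, had 37.5 and 37.7 CPM in control medium and 14.4 and 15.97 in E8-cDRGcm (log2 fold change −1.31 ± 0.09, adjusted p = 2.29e-14), and SFRP1, a secreted antagonist, had 507 and 497 CPM in control medium and 313 and 304 in E8-cDRGcm (log2 fold change −0.70 ± 0.05, adjusted p = 3.50e-15). In the TGF-beta and BMP list, 3 of 19 were called higher (15.8%) and 2 lower (10.5%), beside 9.81% and 10.9% of all genes. ID2 (−0.63) was among those called lower. INHBE, an inhibin subunit, had 6.19 and 6.18 CPM in control medium and 51.9 and 54.0 in E8-cDRGcm (log2 fold change 3.10 ± 0.11, adjusted p = 1.30e-23), and ID1 rose by 0.87. The calls lower in the NF-kB list and in the TGF-beta and BMP list went from 2 to 1 with DESeq2 and when either control library or E8-cDRGcm replicate 2 was left out. Interferon-stimulated genes gave 1 call higher (IRF1, 1.06) and 3 lower among 16, and 17 further members were below the filter. TXNIP-related nutrient genes, the clock, Notch and retinoic acid lists had 2 or 3 calls in each direction. In the Notch list the calls lower went from 3 to 1 without E8-cDRGcm replicate 1, and the calls of the TXNIP and retinoic acid lists also moved between 0 and 4 as libraries or settings were left out or changed. DHRS3, a retinaldehyde reductase, rose by 1.62 while ALDH1A3, which makes retinoic acid, fell by 1.73.

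Other metabolic and stress lists had at most 4 calls in a direction. Of 27 p53 targets 4 (14.8%) were called higher and 2 lower (median 0.04). GADD45A, a growth arrest gene, had 51.5 and 50.2 CPM in control medium and 103 and 102 in E8-cDRGcm (log2 fold change 1.01 ± 0.06, adjusted p = 4.27e-16), whereas SPATA18, of mitochondrial quality control, had 15.8 and 13.7 CPM in control medium and 4.64 and 3.81 in E8-cDRGcm (log2 fold change −1.80 ± 0.16, adjusted p = 7.79e-12). The proapoptotic genes BOK (−1.05) and BID (−0.87) fell and PMAIP1 (0.92) rose, among 13 BCL2 family genes. Glycolysis gave 4 calls higher (18.2%) and 1 lower among 22 (median 0.13), or 2 higher with DESeq2 or without control medium replicate 1. Of 19 hypoxia targets 2 were called higher and 1 lower, although 17 had values above 0 (median 0.35). NDRG1, induced by hypoxia and other stresses, had 3.75 and 2.30 CPM in control medium and 7.93 and 10.6 in E8-cDRGcm (log2 fold change 1.64 ± 0.21, adjusted p = 4.38e-08). Actin cytoskeleton genes under SRF were called higher in 4 of 25 and lower in 0, FLNC among them. MHC class I presentation had 7 genes above the filter, with 1 called higher and 2 lower. The 2 called lower were CALR and PDIA3, which also belong to the ER list above.

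Degradation and matrix genes included large single changes. Of 40 lysosome and autophagy genes 9 were called higher and 2 lower (median 0.15). GABARAPL1, an ATG8 protein of autophagosomes, had 2.52 and 2.1701 CPM in control medium and 9.72 and 10.1 in E8-cDRGcm (log2 fold change 2.08 ± 0.20, adjusted p = 2.27e-11), and MAP1LC3B, the LC3 protein, had 38.001 and 36.0 CPM in control medium and 68.5 and 67.8 in E8-cDRGcm (log2 fold change 0.88 ± 0.08, adjusted p = 4.56e-12). The lysosomal regulators TFE3 and TFEB rose by 0.94 and 1.06. Both libraries of E8-cDRGcm exceeded both controls in these 4 genes. Among 26 matrix proteases and inhibitors 2 were called higher and 3 lower. SERPINE2, protease nexin 1, had 3.90 and 4.34 CPM in control medium and 44.3 and 44.7 in E8-cDRGcm (log2 fold change 3.42 ± 0.12, adjusted p = 1.64e-23). TIMP3, an inhibitor of metalloproteases, had 42 and 35 reads in control medium and 2 and 5 in E8-cDRGcm (log2 fold change −3.35 ± 0.49, adjusted p = 3.90e-07), and ADAM12 had 433 and 430.4 CPM in control medium and 216 and 208 in E8-cDRGcm (log2 fold change −1.02 ± 0.05, adjusted p = 2.07e-19). HOX genes gave 5 calls higher and 1 lower among 16, which became 3 higher with DESeq2 and when control medium replicate 1 or either E8-cDRGcm library was left out. HOXD4 (1.04) was the highest.

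By gene class, the calls of protein-coding genes were balanced, with 1299 higher (10.5%) and 1272 lower (10.3%) of 12375. Long non-coding RNAs leaned lower, with 189 higher (9.78%) and 326 lower (16.9%) of 1932 and a median of −0.15. DESeq2 called 93 of them higher and 202 lower, and without control medium replicate 1 the calls higher were 119. Of the 862 with at least 10 counts in every library, 97 were called higher and 187 lower. LINC01441 had 41.1 and 43.5 CPM in control medium and 3.44 and 4.10 in E8-cDRGcm (log2 fold change −3.48 ± 0.13, adjusted p = 6.93e-23), and the transcripts ENSG00000261762 (−2.58) and ENSG00000278928 (−2.49) followed. ZNNT1 (1.87), ENSG00000287001 (2.095) and the pseudogene ENSG00000229808 (1.898) had the highest fold changes among non-coding genes at 5 CPM or more. The largest difference in level of any gene was that of MALAT1, a nuclear lncRNA, with 4454 and 5570.1 CPM in control medium and 15633 and 16247 in E8-cDRGcm (log2 fold change 1.67 ± 0.13, adjusted p = 1.72e-04). It took 0.451% and 0.562% of the reads in control medium and 1.55% and 1.59% in E8-cDRGcm. NEAT1, the scaffold of paraspeckles, chosen after its values were seen, had 223 and 289 CPM in control medium and 690.4 and 694 in E8-cDRGcm (log2 fold change 1.43 ± 0.20, adjusted p = 0.0047). Both RNAs varied between the control libraries.

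Small RNA genes were called lower far more often than genes in general. Of 103 snoRNA genes, which guide rRNA modification, 57 (55.3%) were called lower and 0 higher, with a median of −0.83. Of 20 snRNA genes of the spliceosome, 15 were called lower and 0 higher (median −1.20). Among 45 genes of the class misc_RNA, which holds Y RNAs and copies of 7SL and 7SK, 13 were called lower and 2 higher, against 8 and 0 without control medium replicate 1 and 10 and 0 with DESeq2. RNU4-1, a U4 snRNA, had 181 and 141 CPM in control medium and 60.1 and 54.1 in E8-cDRGcm (log2 fold change −1.49 ± 0.23, adjusted p = 0.00658), SNORD17 had 341 and 297 CPM in control medium and 131 and 136 in E8-cDRGcm (log2 fold change −1.25 ± 0.23, adjusted p = 0.0107) and RNY1, a Y RNA, had 374 and 294 CPM in control medium and 126 and 125 in E8-cDRGcm (log2 fold change −1.41 ± 0.15, adjusted p = 7.79e-04). In each of them the control libraries differed from each other by more than the treated libraries did, without overlap between the groups. SNORA73B showed the largest fall in level among them, with 1567 and 1411 CPM in control medium and 834 and 878 in E8-cDRGcm (log2 fold change −0.80 ± 0.15, adjusted p = 0.0124), and lost its call when either E8-cDRGcm library was left out or with the correction named below. Small RNA genes of the nuclear genome took 0.651% and 0.571% of the reads in control medium and 0.360% and 0.383% in E8-cDRGcm. When libraries were corrected for the GC content and length of genes, 29 snoRNA genes were called lower and 1 higher, while 12 snRNA genes were called lower and 8 misc_RNA genes lower. Copies of these genes share reads, and the part that library preparation has in the result was not tested. Of 24 SNHG host genes, whose introns hold snoRNAs, 4 were called higher and 0 lower, among them ZFAS1 (0.89), SNHG5 (0.81) and SNHG8 (0.73).

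**Figure D4:**
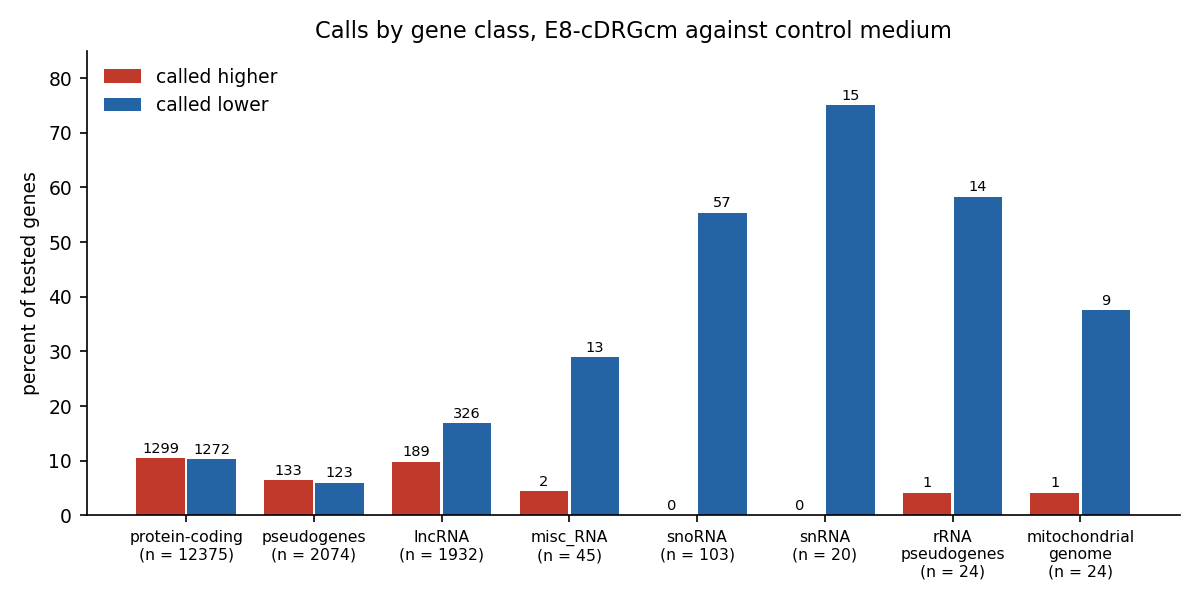
Percent of the tested genes of each class (vertical axis) called higher (red) or lower (blue) in E8-cDRGcm against control medium, with the number of genes called above each bar and the number tested in brackets. Protein-coding genes show near-equal bars, while snoRNA (57 of 103) and snRNA genes (15 of 20) show calls lower only.

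Among nuclear chromosomes the share called higher ran from 7.04% on chromosome X to 11.8% on chromosome 12, and the share called lower from 7.36% on chromosome X to 14.2% on chromosome 20. Of the 24 mitochondrial genes tested, 9 (37.5%) were called lower and 1 (4.17%) higher. Across quartiles of exonic length, protein-coding genes were called higher in 9.86% to 11.1% and lower in 8.76% to 11.1%. Across quartiles of mean level the shares were largest in the quartile next to the lowest, at 14.1% higher and 15.4% lower, and smallest in the highest, at 6.71% and 6.64%.

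Direct contrasts of E8-cDRGcm with the other media, in which the control libraries do not enter the difference, tested these levels between media. Against E8-cSGcm 2.62% of genes were called higher (437) and 4.87% lower (812), and DESeq2 called 227 and 525. Of the stress response list, 5 of 23 were higher and 0 lower, with TRIB3 at 1.38, adjusted p = 2.25e-11, PPP1R15A at 1.37, adjusted p = 2.88e-16 and DDIT3 at 0.73, adjusted p = 7.72e-07. Immediate-early genes were higher in 7 of 22 and lower in 0, led by FOSL1 (1.94, adjusted p = 8.27e-08). The catecholamine list was lower in 7 of 15 and higher in 0, with CYB561 at −1.20, adjusted p = 1.19e-12 and SLC6A2 at −1.09, adjusted p = 8.91e-14. ER genes were lower in 8 of 23, with HSPA5 at −1.36, adjusted p = 1.21e-16, and higher in 2. DNA replication genes were lower in 8 of 48 and higher in 0. IL11 (3.65, adjusted p = 3.99e-15), NPNT (2.48, adjusted p = 6.60e-08), ACVRL1 (−3.32, adjusted p = 2.27e-08) and GPER1 (−4.07, adjusted p = 2.78e-07) differed most among the genes of the highest and lowest fold changes. In contrast, PHGDH (−0.01, adjusted p = 0.88) was not called between the media, and ASS1 was lower in E8-cDRGcm (−0.71, adjusted p = 1.02e-06).

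Against E15.5-mSGcm 13.1% of genes were called higher (2189) and 13.1% lower (2179). The mouse medium differs in species, stage and ganglion, which cannot be told apart, and its libraries had 7930765 and 8937397 counts. Amino acid synthesis genes were higher in E8-cDRGcm in 15 of 24 and lower in 0, with ASNS at 3.52, adjusted p = 1.85e-18, and the stress response list was higher in 13 of 23 and lower in 1. Sterol genes were lower in 14 of 24 and NF-kB genes in 12 of 19, with BIRC3 at −4.29, adjusted p = 1.20e-20. Replication-dependent histones were higher in 44 of 48, with a median of 2.27. MYCN did not differ by the call between these media (−0.08, adjusted p = 0.172), and MALAT1 was at −0.24, adjusted p = 0.187.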

How the data were processed

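Total RNA of IGR-N91 aggregates was sequenced in 8 libraries, 2 per medium. The deposited values are raw read counts per gene, which the authors made with TopHat2 2.1.0 and HTSeq 0.11.3 after bcl2fastq 2.17.1.14 and cutadapt 1.9.1, as credited in the submitters' processing notes. The notes name hg38 and the study's methods name hg19, so no coordinate of the counted genes is given. The strand option of the counting is not given in the sources used here, so overlapping and antisense genes could share reads. Symbols, classes, lengths and GC content came from GENCODE 44, matched for 58611 of 60676 identifiers, and promoter windows from RefSeq on GRCh38.p14.

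All 8 libraries were fitted together in edgeR 4.0.16 (R 4.3.3) with TMM normalisation, filterByExpr by group, and robust quasi-likelihood dispersions. Contrasts between media were tested with glmQLFTest, and p-values were adjusted over the 16680 genes tested. The common biological coefficient of variation was 0.0400. Calls needed a fold change of 1.5 or more besides an adjusted p below 0.05. Ratios of genes with 1 to 3 reads over a group used summed reads, scaled by normalised library size, and an exact conditional binomial interval. Intervals and floors cover counting error only. The libraries compared, the gene lists and their members were chosen with earlier results of these data known. Named genes were the 10 protein-coding and 3 non-coding genes with the largest fold change each way. These needed a mean of at least 5 CPM in either group and groups that did not overlap. Also named each way were 5 genes by difference in CPM and up to 5 members per list. Further list members are named as examples, and such members were chosen after their values were seen. Some members of these lists are not reported by name here.

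Counts were simulated for all 8 libraries (16680 genes), with means and spread taken from all of them and changes set in E8-cDRGcm only. Against control medium, edgeR called 170 of 198 changed genes. Of those changed by 1 on the log2 scale it called 75%, and of those changed by 2 it called 96.9%. DESeq2 called 148 of the 198, and 7 of the 177 calls of edgeR were unchanged genes. Far more genes were called in the data (3460) than were changed in the simulation, so these rates may not carry over. Alternatives were RLE size factors, DESeq2 1.42.0, other filters and thresholds, a replicate block, a correction for GC content and length, only the libraries compared, and each library left out.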

Additional observations from a re-analysis of the deposited data

How the results depend on the processing

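Size of the fold change decided the counts most. At an adjusted p alone, 4143 genes were called higher and 4118 lower in E8-cDRGcm against control medium, 2456 and 2581 against E8-cSGcm, and 4470 and 4297 against E15.5-mSGcm. At a fold change of at least 2 the counts were 743 and 890, 179 and 302, and 1098 and 1198. DESeq2 called 227 higher and 525 lower against E8-cSGcm and, against control medium, 1299 and 1453. Without each library in turn the counts against control medium were 1443 to 1513 higher and 1667 to 1697 lower. With the replicate number as a block they were 1626 and 1818. Same-numbered libraries correlated at −0.0437 to 0.0420 in their deviations from the group means, so no shared effect of the number was visible. That cannot show whether they were prepared together, which the labels do not say. Of the calls of the reported fit, 79.4% were called in the same direction by DESeq2, 95.8% with the GC content and length correction and 81.6% to 83.5% without a library. Of 298 named genes 0 reversed in any alternative and 46 lost their call in at least 1, such as SEL1L, which lay just past the fold change criterion. CACNA1C and TGM2 could not be fitted with only the 4 libraries compared, where they fell below the filter. Depth limited the genes below 1 CPM, where single reads move a value.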
